A study of Mus musculus with 3 samples.

Results

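Homeobox genes encode transcription factors that bind DNA through a homeodomain, and the Pax genes encode factors with a paired domain, some of which carry a homeodomain as well. They set regional and cell identity in the embryo, in the eye, brain, kidney, heart, limb and skeleton among others, and most of them are silent in pluripotent cells. Their starts commonly lie in CpG islands, and in embryonic stem cells such islands are known as targets of Polycomb proteins. The 48 genes described here lie outside the Hox clusters and were taken by name rather than by a measured value. They are 9 Pax genes (Pax1 to Pax9), 8 Lhx genes (Lhx1, Lhx2, Lhx3, Lhx4, Lhx5, Lhx6, Lhx8 and Lhx9), 5 sine oculis homeobox genes (Six2, Six3, Six4, Six5 and Six6), 6 Dlx genes (Dlx1 to Dlx6), 6 Irx genes (Irx1 to Irx6) and 14 genes of other families (Nkx2-1, Nkx2-2, Nkx2-5, Nkx6-1, Otx1, Otx2, Emx1, Emx2, En1, En2, Pitx1, Pitx3, Msx1 and Msx2). All 48 were found among 22367 annotated protein-coding genes.

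The DNA came from E14, an established mouse embryonic stem cell (mESC) line. The cells were grown with serum, LIF and the inhibitors PD0325901 and CHIR99021, so all levels are those of cells under these conditions. TAPSβ, which shields 5hmC with glucose before 5mC is converted, CAPS, which converts 5hmC after chemical oxidation, and PS, which converts 5fC and 5caC directly, were each sequenced in 1 library. TAPSβ and CAPS also read 5fC and 5caC. Each level averages over the cells and alleles of that DNA. There was no replicate, no treated group and no test between conditions. The intervals of levels are exact (Clopper-Pearson) 95% binomial intervals, and those of ratios are 95% intervals on the log scale from the modified calls. All of them cover counting error only. Where no call was modified, the upper limit given is instead the level that 3 modified calls would make. The base calls over all CpG cytosines numbered 511365019 in TAPSβ, 377288829 in CAPS and 383591531 in PS, and the genome-wide levels were 57.5%, 3.14% and 0.246%. RNA was not measured, so the label of the cells was read from promoter levels. Of 9 genes active in mESCs, Pou5f1, Sox2, Zfp42, Tdgf1, Dppa4 and Dppa5a had promoter TAPSβ levels from 0 (of 1076 calls at Pou5f1, which allows up to 0.279%) to 1.57%, Nanog 9.80%, and Dppa3 and Esrrb 30.1% and 41.1%. The promoters of Alb, Krt5, Myh6, Ins2 and Gfap, genes of differentiated cells, lay between 25.5% and 80.5%.

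The stretches upstream of 4 starts show the range of the set. They are 300 bases each from the NCBIM37 (mm9) reference, 5′ to 3′ on the strand of the gene and ending at the base before its start, with each CpG in capitals. Six5 had the lowest promoter level of 5mC, Pax4 the highest, Pax8 the highest promoter level of 5hmC and Irx2, with Irx5, the widest unmethylated region.
Six5, chr7:19679593-19679892, plus strand: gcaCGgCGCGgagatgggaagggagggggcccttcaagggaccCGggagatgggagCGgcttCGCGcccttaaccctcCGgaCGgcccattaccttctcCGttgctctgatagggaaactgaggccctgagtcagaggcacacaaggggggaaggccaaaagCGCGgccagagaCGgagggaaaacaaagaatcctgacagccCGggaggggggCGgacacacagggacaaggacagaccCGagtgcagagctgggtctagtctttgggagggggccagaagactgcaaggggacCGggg
Pax4, chr6:28399354-28399653, minus strand: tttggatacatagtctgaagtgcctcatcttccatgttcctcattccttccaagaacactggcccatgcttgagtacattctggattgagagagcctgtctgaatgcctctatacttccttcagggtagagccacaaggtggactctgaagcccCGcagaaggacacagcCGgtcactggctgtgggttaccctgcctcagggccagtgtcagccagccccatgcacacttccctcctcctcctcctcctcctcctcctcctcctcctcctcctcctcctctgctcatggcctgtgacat
Pax8, chr2:24331120-24331419, minus strand: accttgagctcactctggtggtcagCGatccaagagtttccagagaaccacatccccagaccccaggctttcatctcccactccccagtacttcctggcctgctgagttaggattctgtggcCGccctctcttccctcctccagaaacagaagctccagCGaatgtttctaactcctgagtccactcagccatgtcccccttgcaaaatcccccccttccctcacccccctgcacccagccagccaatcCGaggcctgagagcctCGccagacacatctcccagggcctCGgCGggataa
Irx2, chr13:72765945-72766244, plus strand: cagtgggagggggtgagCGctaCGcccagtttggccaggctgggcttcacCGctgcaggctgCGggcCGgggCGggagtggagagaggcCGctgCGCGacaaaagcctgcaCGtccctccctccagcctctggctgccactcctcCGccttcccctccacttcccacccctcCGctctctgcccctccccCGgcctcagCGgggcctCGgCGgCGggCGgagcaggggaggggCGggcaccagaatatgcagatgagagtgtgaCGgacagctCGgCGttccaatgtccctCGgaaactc
The stretches hold 17, 2, 7 and 23 CpGs in that order. In the Six5 stretch 2 of 545 TAPSβ base calls were modified, and in the Irx2 stretch 1 of 672. In the Pax4 stretch 29 of 50 were modified (58.0%, 43.2 to 71.8%). The Pax8 stretch carried both marks, with 62 of 152 TAPSβ calls (40.8%, 32.9 to 49.0%) and 11 of 100 CAPS calls (11%, 5.62 to 18.8%) modified and no modified call among 108 in PS, which allows up to 2.78%. The CpG-poor stretches were thus the methylated ones among these 4.

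The first question was whether the promoters, 500 bp to each side of the annotated start, were free of 5mC. Levels are modified base calls over all base calls, pooled over the cytosines of the window. The promoter was under 10% TAPSβ in 40 of the 48 genes (83.3%), against 58.7% of the 21354 protein-coding genes with at least 20 base calls. The median promoter level was 1.36%, against 3.52% over all genes. It depended on the window, with 0.655% against 1.14% for 250 bp and 4.34% against 8.55% for 1000 bp on each side. Of the 48 promoters 20 were under 1% (41.7%), near the 35% of all genes. The share under 10% was 67.5% in 40 Hox genes, 77.3% in 66 other homeobox genes and 95.8% in 72 cytosolic ribosomal protein genes, which are active in every cell. All promoters of the sine oculis and Irx genes were under 10%. The family medians were 0.29% for Irx, 0.42% for sine oculis, 0.74% for Lhx, 2.16% for Dlx, 2.86% for the other families and 7.36% for Pax, and the ranges of neighbouring families overlapped. The Irx promoters also held the most CpGs (median 96.5) and the Pax promoters the fewest (44), while all 48 had a median of 61.5 and all genes one of 42. Across the 48 genes the promoter TAPSβ level fell with the number of CpGs (Spearman's rho −0.79, Pearson's r −0.68, n = 48), as a description of points that share 1 library.

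The lowest promoter was that of Six5, a homeobox gene next to the myotonic dystrophy locus, with 2 of 2762 modified calls (0.0724%, 0.00877 to 0.261%). Its CAPS level was 1.10% (0.630 to 1.78%), which is near the CAPS level of 1.03% measured in all 1-kb bins around genes with under 5% TAPSβ. Over the 48 promoters the CAPS level had a median of 1.12%, against 1.25% for all genes. It rose with the TAPSβ level from gene to gene (Spearman's rho 0.79, Pearson's r 0.69, n = 48, no test).

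The remaining 8 promoters had levels of 10% or more. Pax4, which acts in the endocrine pancreas, had 54.3% (42.9 to 65.4%) over 3 CpGs and 81 calls, so its value is the least precise. Its CAPS level was 1.59% (0.0402 to 8.53%). Pax8, a factor of thyroid and kidney, had 37.7% (33.2 to 42.4%) in TAPSβ and 10.3% (6.98 to 14.6%) in CAPS, the highest CAPS level among the 48 promoters. Otx2, a factor of the forebrain that mESCs also use on leaving the naive state, followed with 27.4% (24.2 to 30.9%) and a CAPS level of 7.59% (5.14 to 10.7%). The promoters of Pax8 and Otx2 were therefore partly methylated, with the highest CAPS levels among the 48. The 1-kb bins around all genes with 20 to 40% TAPSβ had a pooled CAPS level of 5.61%. That value lies inside the Otx2 interval and below the Pax8 interval. The promoter of Pax4 had the higher 5mC level and a CAPS interval that reaches down to background.

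The other 5 lay between 11.6% and 18.3%. Dlx1, a factor of forebrain interneurons, had 18.3% (15.8 to 20.9%), and Lhx8, which acts in cholinergic neurons and teeth, had 17.7% (15.5 to 20.1%). Lhx3, needed for the pituitary, had 12.5% (10.4 to 14.8%). Nkx2-5, the cardiac factor, had 11.6% (9.86 to 13.6%) and Nkx2-1, the factor of lung and thyroid, 11.6% (9.77 to 13.6%). The intervals of Nkx2-5 and Nkx2-1 reach below 10%, so their side of the limit is uncertain. The same holds for Pax1 (9.39%, 7.97 to 11%) and Pax6 (8.95%, 7.37 to 10.7%), counted below it. Their CAPS levels lay between 2.15% for Lhx3 and 4.13% (2.81 to 5.85%) for Nkx2-1.

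For several of these genes the choice of start decided the value. The annotation gives Otx2 further coding starts from 2123 to 5712 bp downstream of the outermost, and their windows had TAPSβ levels of 0.856% to 1.42%. The Otx2 starts at 131 and 136 bp, whose windows largely overlap that of the outermost, had 23.1%. Lhx8 had 1.94% at a start 592 bp downstream and 0.378% at one 2017 bp downstream. Dlx1 had 4.73% at 570 bp and 0.285% at 988 bp. The Pax8 starts at 384 and 502 bp still had 30.2% and 26.6%, with CAPS levels of 8.71% and 8.62%, but the bin from 1 to 2 kb downstream of its outer start had 50 of 1637 TAPSβ calls modified (3.05%) and a CAPS level of 1.48%. The opposite order was seen at Pax5, the B-cell factor, with 7.36% at the outer start and 38.5% (35.1 to 42.1%) at a start 1038 bp downstream, and at Pitx3, a factor of dopaminergic neurons and the lens, with 0.393% at the outer start and 63.4% (58.1 to 68.5%) at one 7392 bp downstream.

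The second question was how far the unmethylated region around the start extends. The 10 kb on each side were cut into 1-kb bins from the start outward, and the region was the unbroken run of bins under 10% TAPSβ that touches the start. The median width over the 48 genes was 2 kb, the same as over the 12540 genes with a promoter under 10% and above the 1 kb of all genes. The region was 0 kb in 4 genes, 1 kb in 10, 2 or 3 kb in 23, 4 kb in 7 and 5 kb or more in 4, and none reached the limit of 10 kb. Regions of at least 5 kb were found in 4 of the 48 genes (8.33%), against 2.02% of all genes. Among Hox genes they made up 5.00%, among the other homeobox genes 13.6% and among ribosomal protein genes 11.1%. The count depends on the bins, since none of the 48 regions reached 5 kb with 500-bp bins, and 17 did when bins under 20% were joined. The shares of all genes under these settings were not computed, so these counts are not set against a background.

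Within the families, the Irx genes held the widest regions. Irx2 (chr13:72766245-72771644) and Irx5 (chr8:94881695-94885351), both factors of embryonic patterning, each had 6 kb, with 2 and 3 kb of it upstream of the start and promoter levels of 0.206% and 0.223%. At an Irx2 coding start 1800 bp downstream, inside this region, the level was 13.6% (11.7 to 15.7%). The Irx2 run is thus unbroken only on the 1-kb bins used. Irx1, among the narrowest of its family together with Irx4 and Irx6, had 2 kb and a promoter at 0.296%. The Irx genes lie in 2 groups, Irx1, Irx2 and Irx4 on chromosome 13 and Irx3, Irx5 and Irx6 on chromosome 8, and each group held 1 region of 6 kb and at least 1 of 2 kb. The width therefore varied within both groups as much as in the family.

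Lhx1 (chr11:84331479-84338923), required for the head and the kidney, had 5 kb, 2 kb upstream and 3 kb downstream, whereas Lhx3 had no bin under 10% at its start. At an Lhx1 coding start 2710 bp downstream, whose window crosses the edge of the region, the level was 12.2% (10.6 to 14.0%). Dlx2 (chr2:71381466-71384811) also had 5 kb, 4 kb of it downstream, which is more than the length of the gene of 3346 bp. Dlx4 and Dlx5 had 1 kb. Dlx1 and Dlx2 lie with 18641 bp between their starts, and Dlx6 and Dlx5 with 18751 bp, so the windows of each pair overlap and their bins are not independent. In the sine oculis family Six4, which acts in muscle, and Six5 had 4 kb and Six6, an eye factor, had 1 kb. Pax7, the factor of muscle stem cells, had the widest Pax region with 4 kb, and Pax4 and Pax8 had none. Nkx2-1, Otx1 and En2 led the other families with 4 kb, and Nkx2-5 had 0 kb. The family medians were 3 kb for Lhx and sine oculis, 2.5 kb for Irx, 2 kb for Dlx and the other families and 1 kb for Pax, and every family's range overlapped that of each other family.

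**Figure D1:**
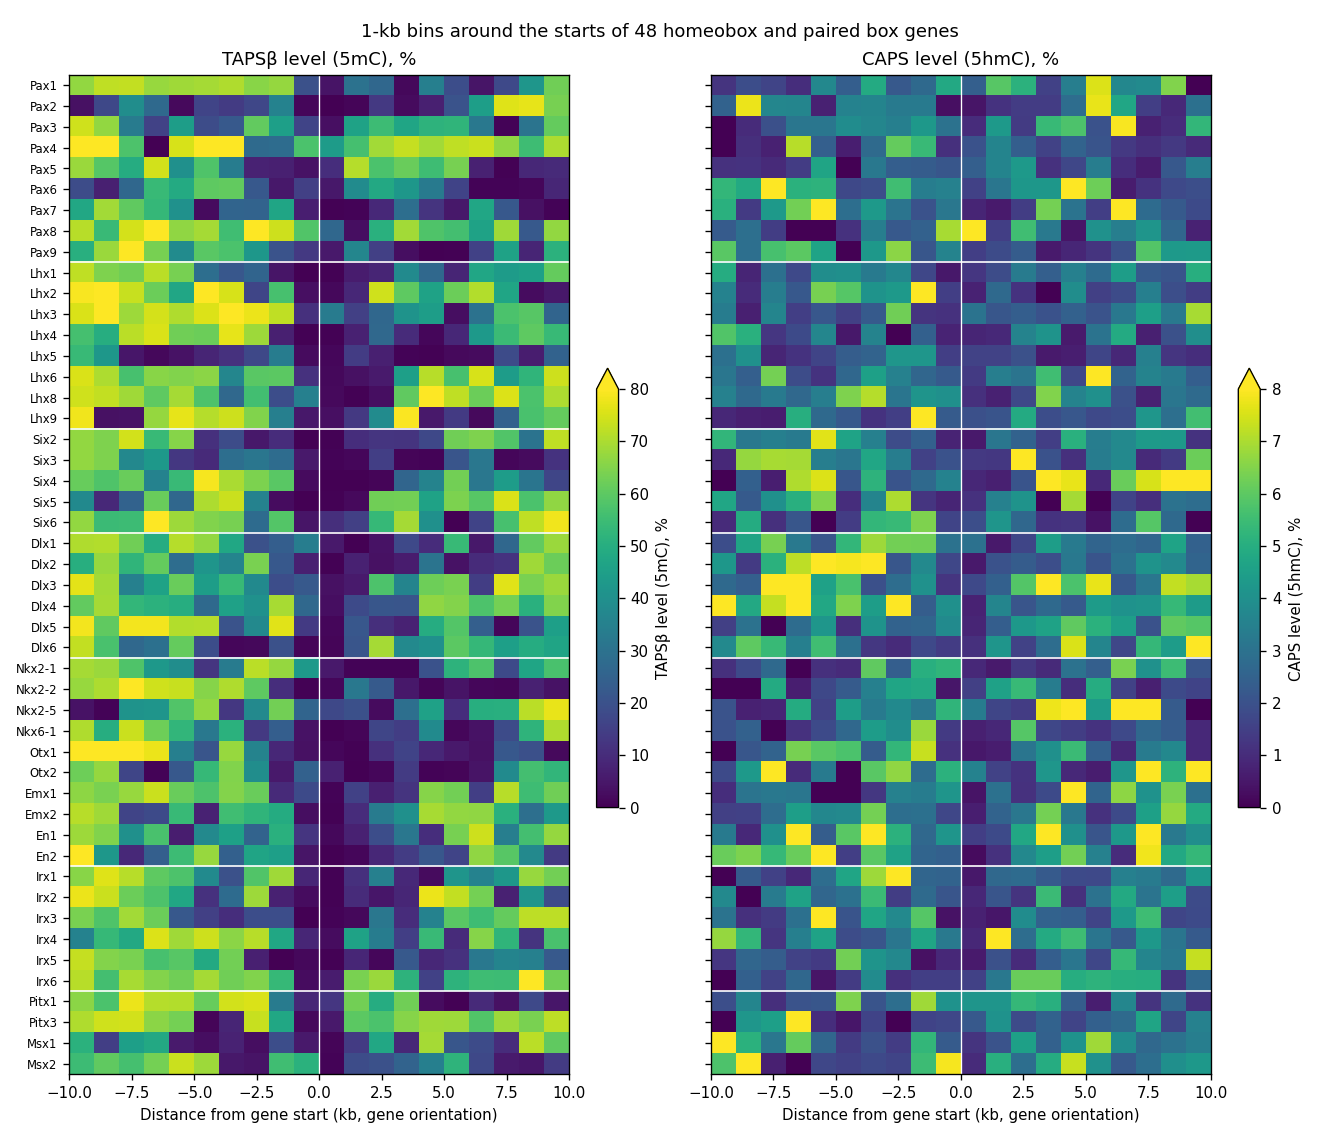
TAPSβ level (left, colour from 0 to 80%) and CAPS level (right, colour from 0 to 8%) in 1-kb bins from 10 kb upstream to 10 kb downstream of the start, 1 row per gene and white lines between families. Dark TAPSβ bins at the start are joined by separate dark bins farther out, as in Lhx5, Nkx2-2 and Six3, and single CAPS bins rest on few calls.

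The bins showed a feature that the width at the start does not capture, and the count of low bins was added after it was seen. In many of the genes further bins under 10% lay apart from the start, as the plot of bins by gene shows. Over the 20 bins of the window the 48 genes had a median of 4 bins under 10% (range 1 to 12), against 1 over all genes, 2 over genes with a promoter under 10%, 5.5 over Hox genes and 4 over both the other homeobox and the ribosomal protein genes. Windows with 5 or more such bins were found in 23 of the 48 genes (47.9%), against 7.33% of all genes. With bins under 5% there were 8 such genes (16.7%, against 3.38% of all genes), and with bins under 20% there were 39 (81.2%, against 15.2%). In 40 of the 48 genes (83.3%) at least 1 low bin lay apart from the region at the start, against 28.2% of all genes, 90% of Hox genes, 63.6% of the other homeobox genes and 55.6% of ribosomal protein genes. In 19 genes (39.6%) the low bins apart outnumbered those at the start, against 14.7% of all genes and 55% of Hox genes. Lhx5, a forebrain factor, had 12 low bins although its region was 2 kb wide. Nkx2-2, a factor of the ventral neural tube and pancreas, had 9 low bins with a region of 2 kb. Its only annotated coding starts lie 7841 and 7982 bp downstream, at TAPSβ levels of 2.22% and 2.32%. Its region and low bins are thus counted from a gene start that is not a coding one. Pax7, Six3, Otx1 and Otx2 had 8 each, with regions of 3 or 4 kb. Six3 has further coding starts 7235 and 7423 bp downstream, at 4.15% and 1.60%. How many of the low bins apart lie at further starts of the same gene was not counted.

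The Pax genes combined the narrowest regions by median with many separate low bins. The Pax median width was lowest under 7 of 8 settings, and with bins under 5% it was tied with Dlx and the other families at 1 kb. The widest median belonged to Lhx, sine oculis or Irx, depending on the setting. The Pax genes had a median of 5 low bins, and a median of 4 lay apart from the start, against 1 to 2.5 in the other families. Pax6, the factor of eye, brain and pancreatic islets, had a region of 1 kb, a level of 8.95% at its outer start and 6 low bins apart from it. Its coding starts between 6295 and 7233 bp downstream had levels of 0.558% to 1.93%. The Pax6 start at 2964 bp had 36.9%, and those from 9495 bp on ranged from 5.14% at 20559 bp to 74.3% at 16426 bp. Pax9, a factor of teeth and vertebrae, had 5.06% at its outer start and 0.173% at a start 3872 bp downstream. Pax4 and Pax8 had 1 low bin each among 20.

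Pooled over the whole window of 20 kb, the TAPSβ level of the 48 genes had a median of 18.5%, against 40.5% over all genes and 33.3% over genes with a promoter under 10%. It was under 30% in 41 of the 48 windows (85.4%), compared with 24.4% of all genes, 95% of Hox genes, 77.3% of the other homeobox genes and 83.3% of ribosomal protein genes. The lowest window was that of Lhx5 with 7.01% and the highest that of Pax4 with 59.4%. The windows of the 48 genes were also rich in CpGs, with a median of 974 listed CpG cytosines against 499 over all genes. Bins with 80 or more CpG cytosines made up 20.2% of the bins around the 48 genes and 4.91% of those around all genes. Within each class of 10 or more cytosines the share of low bins was not higher around the 48 genes, and in bins with fewer it was 1.35% (1 of 74 bins) against 1.17%. In bins with 80 or more cytosines 80.9% of those around the 48 genes were under 10% TAPSβ, against 92.3% around all genes, and in bins with 40 to 79 cytosines the shares were 25.8% and 26.5%. The pooled TAPSβ level of the densest bins was 4.31% (4.24 to 4.37%) against 2.33% (2.32 to 2.33%), and that of bins with 40 to 79 cytosines was 20.9% (20.7 to 21.1%) against 27.1% (27.1 to 27.1%). By pooled level the densest bins were thus more methylated around the 48 genes and the next class less. The spread between genes was not computed for these classes, and density was not matched within a class.

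**Figure D2:**
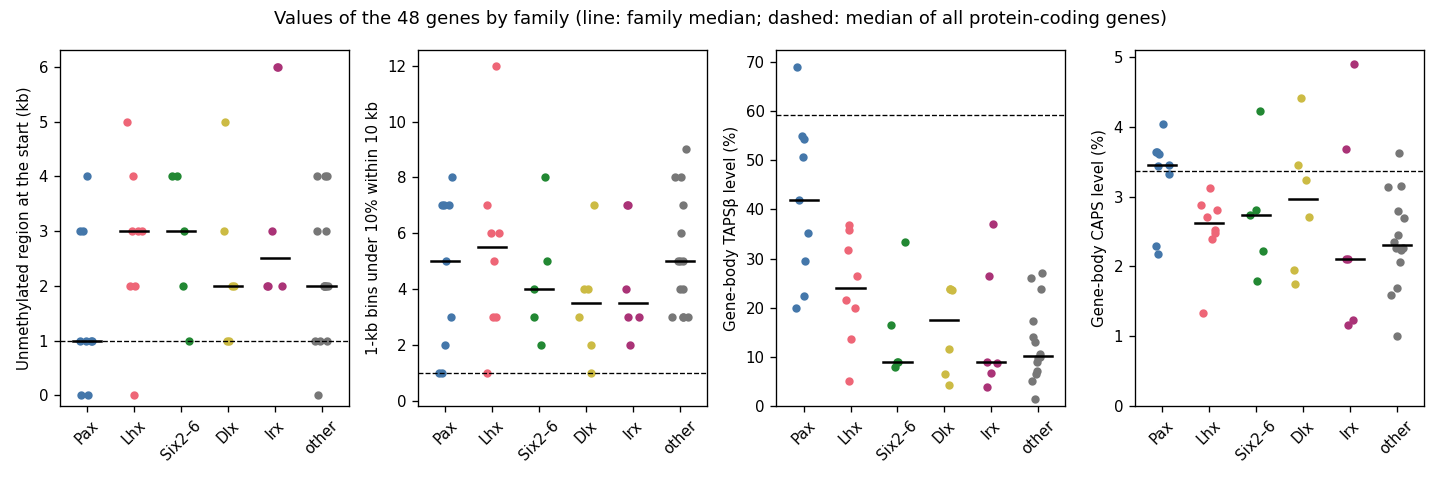
Width of the unmethylated region (kb), number of 1-kb bins under 10% TAPSβ within 10 kb of the start, gene-body TAPSβ level (%) and gene-body CAPS level (%) by family (Six2–6 are the sine oculis genes), 1 point per gene, with the family median as a line and the median of all protein-coding genes dashed. The Pax genes have the narrowest regions (median 1 kb) and the highest gene-body TAPSβ level (median 41.9%).

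The third question concerned the gene bodies, taken from 500 bp past the start to the end of the gene. The median gene-body TAPSβ level of the 48 genes was 18.7% (quartiles 8.94 and 27.6%), against 59.1% over all genes (46.7 and 66.2%). The median was 12.8% in Hox genes, 20.3% in the other homeobox genes and 4.58% in ribosomal protein genes, so such low bodies were not particular to the 48. In 17 of the 48 genes (35.4%) the body was under 10%, against 3.28% of all genes. In 47 it lay below the median of all genes, and the exception was Pax4, with 69.0% (66.7 to 71.1%). Nkx2-1 had the lowest body with 1.39% (1.13 to 1.69%), followed by Irx5 with 3.84% (3.32 to 4.43%) and Dlx2 with 4.41% (3.87 to 5.00%). The family medians were 8.94% for Irx, 8.98% for sine oculis, 10.3% for the other families, 17.6% for Dlx, 24.0% for Lhx and 41.9% for Pax. Irx and sine oculis did not differ beyond the spread of their members, and Pax was highest under each of the 9 settings tried for this value. The order of the others depended on the region at the start. With that region left out, the medians were 19.2% for the other families, 27.3% for Lhx and 30.2% for Dlx. They were 30.7% for Irx, 33.4% for sine oculis and 45.9% for Pax, so Irx and sine oculis were no longer lowest. Dlx2, the lowest Dlx body, had no base call left and is not in the Dlx median. Irx2, Irx5 and Six5 kept only 223, 280 and 320 TAPSβ calls, so the new order rests in part on small remnants. Within the Irx family, Irx4 (26.4%, 25.4 to 27.6%) and Irx6 (37.1%, 35.3 to 39%) stood above the others, which ranged from 3.84% to 9.07%.

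Short genes keep a larger part of their body near the start, so the values were read by length as well. Among genes under 10 kb the median was 10.6% for 29 of the 48 genes and 55.7% for all genes. From 10 to 30 kb it was 21.9% (10 genes) against 56.4%, and above 30 kb it was 36.9% (9 genes) against 62.2%. Among genes with a promoter under 10% the medians of the 3 classes were 34.7%, 53.7% and 61.4%. With the unmethylated region at the start left out of the body, the median of the set was 28.3%, against 62.5% over all genes. Dlx2 had no base call left and is not in this median. Six5 moved from 8.92% to 62.8% and Irx2 from 9.07% to 75.3% over the few base calls left, so most of the unmodified calls of these bodies lay in the region at the start. Lhx5 stayed at 5.21% and Nkx2-2 at 10.3%, where the body of Nkx2-2 includes its coding starts.

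CpG density moved with the body level too. The bodies of the 48 genes had a median of 60.4 CpG cytosines per kb, against 21.7 for all genes. Among bodies with 60 or more per kb, the 24 genes of the set had a median TAPSβ level of 9.02% and all 738 genes one of 9.23%. Among bodies with 40 to 60 per kb the medians were 22.4% (7 genes) and 30.6%, and among those with 20 to 40 per kb 34.3% (16 genes) and 54.9%. Across the 48 genes the body level fell as CpG density rose (Spearman's rho −0.87, Pearson's r −0.79, n = 48, no test). Irx6, with 33.7 CpG cytosines per kb, was the least dense of the Irx bodies, and Irx3, with 131, the most dense. The difference from other genes was thus close to nil among the densest bodies and larger among the less dense ones, of which only Pax8 had under 20 per kb. The classes were not matched within themselves. From 20 to 40 per kb the median density was 33.4 in the set and 26.4 over all genes. From 40 to 60 per kb it was 46.3 and 46.1. How much of the difference goes with density inside a class was not tested.

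5hmC in the same bodies differed less. The median gene-body CAPS level was 2.70% (quartiles 2.16 and 3.35%), against 3.37% over all genes (2.48 and 4.24%), and 36 of the 48 genes lay below that median. The highest levels were those of Irx6 with 4.90% (3.93 to 6.03%), Dlx3, a factor of skin, hair and placenta, with 4.41% (3.62 to 5.32%), Six4 with 4.23% (3.66 to 4.87%), Pax7 with 4.04% (3.82 to 4.28%) and Irx4 with 3.69% (3.13 to 4.31%). The intervals of Irx6 and Irx4 overlap, and that of Pax7 is the narrowest of the 5. The lowest levels were those of Nkx2-1 with 1.00% (0.709 to 1.37%), Irx5 with 1.16% (0.802 to 1.61%) and Irx3 with 1.23% (0.842 to 1.73%). These 3 are near the CAPS level of 1.16% found in the bins of the set with under 5% TAPSβ. The Irx family thus held the highest value and 2 of the 3 lowest, and the intervals of Irx6 and Irx5 do not overlap.

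By family the gene-body CAPS medians were 3.45% for Pax, 2.97% for Dlx, 2.74% for sine oculis, 2.62% for Lhx, 2.31% for the other families and 2.11% for Irx. Pax was highest under each of the 10 settings tried. The median share of CAPS in the sum of the CAPS and TAPSβ levels was 14.7% in the 48 bodies, against 5.81% over all genes. Hox genes had 17.0%, the other homeobox genes 12.8% and ribosomal protein genes 24.1%, so a raised share was not particular to the 48. Within the set the median share was 7.58% in Pax, 10.3% in Lhx and 17.2% in Irx. It was 18.8% in the other families, 19.3% in Dlx and 19.9% in sine oculis. After correction of the CAPS level for false positives and incomplete conversion the medians were 12.1% in the 48 bodies and 5.61% over all genes. The family medians became 7.30% in Pax, 9.12% in Lhx and 12.1% in Irx. The other families had 16.8%, sine oculis 16.9% and Dlx 17.3%. The share in the 48 bodies was larger while the medians of both levels were lower than over all genes. By CpG density the CAPS levels were not lower throughout. Among bodies with 60 or more CpG cytosines per kb the median was 2.25%, against 2.11% for all genes, whereas it was 2.39% against 3.64% from 40 to 60 and 3.28% against 3.84% from 20 to 40.

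**Figure D3:**
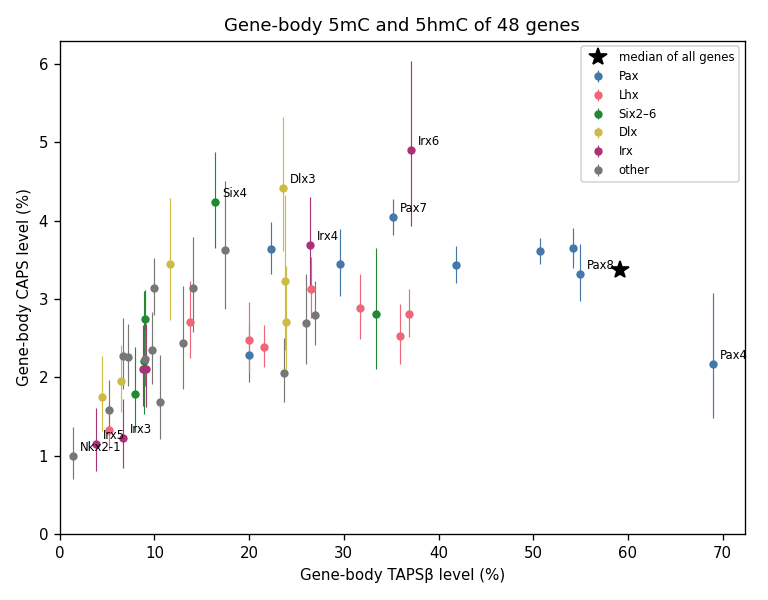
Gene-body CAPS level (%) against gene-body TAPSβ level (%), 1 point per gene coloured by family, with exact 95% intervals of the CAPS level as bars and the median of all protein-coding genes as a star. Nkx2-1, Irx5 and Irx3 lie at the lower left, Irx6 has the highest CAPS level (4.90%) and Pax4 the highest TAPSβ level (69.0%).

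Across the 48 bodies the CAPS level rose with the TAPSβ level (Spearman's rho 0.69, Pearson's r 0.53, n = 48, no test), but the relation was not a straight line. When the 1-kb bins of the windows were sorted by their TAPSβ level, the pooled CAPS level was 1.16% in bins under 5%, 2.60% from 5 to 10%, 3.55% from 10 to 20%, 4.79% (4.60 to 4.98%) from 20 to 40%, 4.53% (4.35 to 4.73%) from 40 to 60%, 2.94% from 60 to 80% and 2.05% (1.53 to 2.70%) from 80%. 5hmC was thus highest in bins of intermediate 5mC. The bins of all genes followed the same course with a higher top, 5.61% (5.59 to 5.62%) from 20 to 40% and 4.99% (4.98 to 5.00%) from 40 to 60%. In these classes the intervals of the 48 genes lie below those of all genes. In bins under 5% the 48 genes were above all genes, with 1.16% (1.10 to 1.22%) against 1.03% (1.03 to 1.03%).

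**Figure D4:**
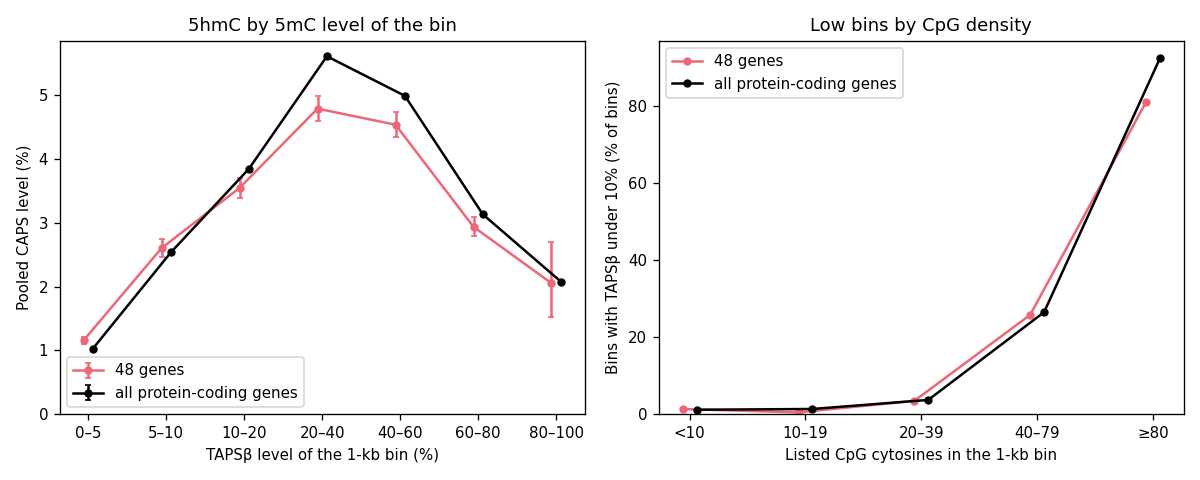
Left, pooled CAPS level (%) of 1-kb bins by their TAPSβ level, with exact 95% intervals, for the 48 genes and all protein-coding genes, peaking at 4.79% and 5.61% in bins of 20 to 40%. Right, share of bins under 10% TAPSβ by the number of listed CpG cytosines in the bin, which reaches 80.9% and 92.3% in the densest bins.

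The fourth question was whether 5hmC gathers at the edges of the unmethylated region. For the 44 genes with a region, the pooled CAPS level was 1.38% (1.31 to 1.45%) inside, 3.55% (3.41 to 3.69%) in the 2 bins next to the edge and 3.19% (3.12 to 3.26%) in bins 3 to 10. The level next to the edge was 2.57 times that inside (2.41 to 2.74) and 1.11 times that farther out (1.06 to 1.16). After subtraction of the CAPS false-positive rate from both levels the first ratio was 4.27, which the counting interval does not cover. It exceeded the inside level in 43 of 44 genes (97.7%), against 97.2% of the 12035 genes with a promoter under 10% and a region. It exceeded the level farther out in 27 of 44 (61.4%), against 53.8% of those genes and 61.1% of all genes with a region of at least 5 kb. The first share was thus near that of other genes, and the second equal to that of genes with wide regions. The exception to the first count was Pitx3, with 2.00% inside and 1.92% next to the edge. Before subtraction Irx3 had the largest ratio, 7.13, from 0.549% (0.331 to 0.855%) inside to 3.91% (3.19 to 4.74%). Its inside level lies below the CAPS false-positive rate, so it has no ratio after the subtraction and this rank does not carry over. Six4 had the largest difference, from 1.42% (1.01 to 1.93%) to 6.14%. Six4, Six5, Msx2 and En2 had the highest levels next to the edge, 6.14% (4.71 to 7.85%), 5.70%, 5.28% and 5.26%.

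Among the 12035 genes the level was 1.15% inside, 3.99% next to the edge and 3.83% farther out, a ratio of 3.46 (3.44 to 3.48) to the inside and of 7.56 after the same subtraction. The step in 5hmC was thus smaller at the 44 genes. The step in 5mC was smaller as well, from 2.59% inside to 23.6% next to the edge and 27.4% farther out, against 1.88%, 41.0% and 49.5%. The edges were placed on TAPSβ, so its levels across them are a description. The 2 sets are also unlike, since the 44 genes include Dlx1, Lhx8, Nkx2-1 and Otx2, whose promoters were at 10% or more. How far those genes change the steps was not tested. Of the 10 bins outside the edge at these 44 genes, the first was highest in CAPS with 3.90% (3.70 to 4.11%), and the second 3.18% (3.00 to 3.37%).

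**Figure D5:**
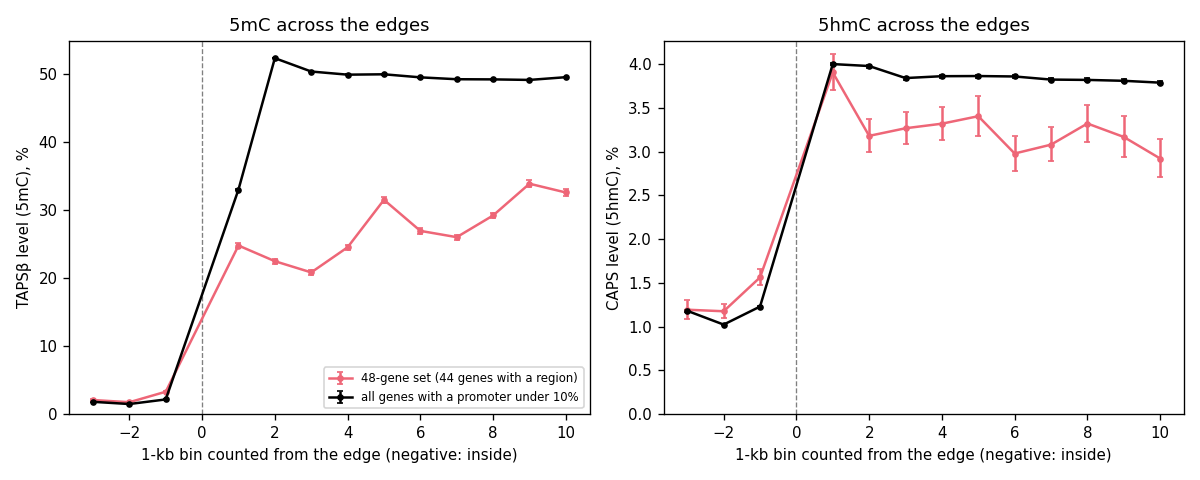
Pooled TAPSβ level (left, %) and CAPS level (right, %) in 1-kb bins counted from the edges of the unmethylated region, negative inside and positive outside, for the 44 genes with a region and for the 12035 genes with a promoter under 10% and a region, with exact 95% intervals. Outside the edge the TAPSβ level of the 44 genes stays between 20.8% and 33.8%.

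At single cytosines, a CAPS signal above the false-positive rate was called by a one-sided exact binomial test with Benjamini-Hochberg adjustment over the genome, which called 1.64% of 36060655 cytosines with at least 5 reads. In the bodies of the 48 genes 485 of 34356 cytosines were called (1.41%), against 1.92% in the bodies of all genes. In their promoters 15 of 4568 were called (0.328%), against 0.536% in those of all genes and 0.221% in promoters under 10% TAPSβ. The members' share thus lay between both, and 9 of the 15 were in promoters at 10% or more. The 15 lay in 8 promoters (16.7%), against 22.8% of the promoters of all genes and 16.5% of promoters under 10%, with 3 each in Pax8, Nkx2-1 and Msx2, 2 in Otx2 and 1 each in Nkx2-2, Nkx2-5, Nkx6-1 and Pitx1. No promoter of the Lhx, sine oculis, Dlx or Irx genes held one. In the bodies, 305 of the 485 lay in Pax genes, which are the longest of the set, and their share of 1.93% was near that of all genes. The Lhx bodies had 0.627%, the other families 0.969%, Irx 1.07%, Dlx 1.32% and sine oculis 1.69%. In 7 bodies, those of Irx1, Irx3, Msx1, Nkx2-1, Nkx2-5, Pax4 and Pitx3, no cytosine was called (14.6%), against 19.5% of the bodies of all genes and 7.45% of those of genes with a promoter under 10%. A median of 9 reads limits these calls, and a cytosine not called is not shown to lack 5hmC.

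Of the called cytosines covered by 10 reads or more, the 5 named here as highest in CAPS level all lay in introns. The first was in Lhx4, a factor of pituitary and motor neurons, at position 157565731 of chromosome 1, with 6 of 12 CAPS reads modified (interval 21.1 to 78.9%), and 8 of 16 TAPSβ reads were modified there. In Pax2, a kidney and optic nerve factor, position 44900619 of chromosome 19 had 6 of 13 CAPS reads, and in Pax6 position 105534245 of chromosome 2 had 6 of 14. Position 44575484 of chromosome 4 in Pax5 had 5 of 12, and position 78112833 of chromosome 1 in Pax3, a neural crest and muscle factor, had 4 of 10. None of the 5 had a modified PS read among 7 to 16. Further cytosines shared the level of the last of them, which was named by the order of the genes. Whether those further cytosines lie in introns was not read. The share of all tested cytosines that lie in introns was not counted either, so the 5 are not shown to favour introns.

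PS, which reads 5fC and 5caC, was low throughout. The pooled level was 0.218% (0.180 to 0.261%) in the promoters of the 48 genes and 0.206% (0.192 to 0.221%) in their bodies, against 0.276% and 0.211% for all genes. The promoter intervals of the 2 sets do not overlap, and those of the bodies do. These levels are close to or below the false-positive rate stated for PS, which was not subtracted, so the promoter difference is not shown to be one of 5fC and 5caC. By the TAPSβ level of the bins, PS lay between 0.129% and 0.252% around the 48 genes. Single promoters rested on 0 to 9 modified PS calls. The promoter of Pax8 had 0 of 318, which allows up to 0.943%, and that of Otx2 had 1 of 471. The highest levels were those of Otx1, with 8 of 886 (0.903%, 0.391 to 1.77%), and Pax1, with 7 of 809 (0.865%, 0.349 to 1.77%). Among the 48 promoters their intervals alone lay above the genome-wide level of 0.246%. The share of all promoters with such an interval was not counted, so Otx1 and Pax1 are not shown to stand out.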

How the data were processed

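TAPSβ, CAPS and PS were applied to gDNA of E14 mESCs, 1 library each. The authors trimmed reads with Trim Galore 0.3.1, mapped them with BWA 0.7.12 to mm9, removed duplicates with Picard 2.3.0 and used asTair to call the bases. At each listed CpG they deposited a count of modified reads, a count of unmodified reads and the fraction of modified reads, without normalization. Whether artifact-prone regions and known variants were removed from the deposited values is not given in the sources used here. The median cytosine had 13 TAPSβ reads, 9 CAPS reads and 9 PS reads, and calls of 1 read at several cytosines are not independent.

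The counts were pooled over cytosines. Gene bounds came from GENCODE M1 on NCBIM37, and the start was that of the annotated gene. Bins needed at least 20 base calls, and a single bin with fewer was passed over. CAPS cytosines were called against a false-positive rate of 0.0072, with at least 5 reads and an adjusted p under 0.05. In 1 alternative, positions read as modified in 20% or more of at least 5 PS reads were left out as variant-like. The correction of CAPS used the conversion rate stated by the study. Some symbols of the comparison lists have several gene entries, which were counted as genes. The calling and the region rule were also run on simulated data. No result of that run is given here, so it does not show how well the edges of the regions are placed. Whether the simulated levels resemble those near the edges in these data was not tested.

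The members and lists were chosen with earlier results of these data known. All 48 genes are named, with values for the widest and narrowest region of each family, promoters at 10% or more, the 5 highest and 3 lowest gene-body CAPS levels, and 5 called cytosines. The low bins, the classes of CpG density, length and TAPSβ level, the further starts, the genes named beside them and the shares over the comparison lists were chosen after values had been seen. Alternatives for averaging, coverage, strand, windows, thresholds and bins were also run. The PS-c library was not analysed here, and 1 gene of the list for differentiated cells is not reported here. The work was done with numpy 2.4.6, pandas 2.3.3, scipy 1.17.1 and matplotlib 3.10.9 under Python 3.11.15.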

Additional observations from a re-analysis of the deposited data

How the results depend on the processing

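No paired analysis was possible because each method has 1 library. Of 76 values recomputed under another setting, 54 stayed within the counting interval of the value, or within 1.5 times of a count, width or share, and 22 moved. For a median level, the interval was that of the single gene nearest the median, so the label depends on the depth of that gene. The median promoter TAPSβ level moved with the window, to 0.655% with 250 bp and 4.34% with 1000 bp on each side, and to 2.50% over all coding starts, while 38 to 41 promoters were under 10%. The median gene-body TAPSβ level was 19.9% as a mean of single cytosines, 15.3% over whole gene bounds and 28.3% outside the unmethylated region, the last without Dlx2. The median width was 1 kb with bins under 5% and 4 kb with bins under 20%. Regions of at least 5 kb numbered 0 with bins under 5% and with 500-bp bins, 17 with bins under 20% and 12 when 1 higher bin was allowed. These counts have no share of all genes beside them. Genes with 5 or more low bins numbered 8 with bins under 5% and 39 with bins under 20%, where the median was 7. The ratio of CAPS next to the edge to CAPS inside was 2.97 with 500-bp bins, 2.20 with bins under 20% and 4.27 after correction. Called promoter and body cytosines numbered 8 and 268 with at least 10 reads, and 60 and 1602 when adjusted over cytosines with a modified read. Over the whole genome the share of tested cytosines called was higher than in the main setting under both, and highest under the second. The shares in the set under these settings are not given here, so the rise to 60 and 1602 is not shown to be particular to it. The cause of these moves was not tested beyond what each setting changes by construction. With a median of 9 reads in CAPS, single cytosines are imprecise, and the start annotated for a gene with several starts sets its promoter value and its bins.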
